A study of Homo sapiens with 6 samples.

Results

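CYR61, CTGF, CRIM1, AXL, ANKRD1 and GADD45A are 6 target genes of the transcriptional co-activators YAP and TAZ whose RNA held peaks of G4PID, a biotin ligase engineered to seek out G-quadruplexes. The 6 genes carried 11 of the 270 G4PID peaks deposited for HEK293T cells, a human embryonic kidney line, and 0 of the 3660 peaks deposited for the splicing factor SF3B4. They were chosen because they held a G4PID peak: a peak counted when its midpoint lay within the gene on the same strand. Their presence in the G4PID list is therefore a description and no finding. Among all 19922 annotated protein-coding genes, 0.507% held a G4PID peak and 9.37% an SF3B4 peak by the same rule. The names are those of GENCODE release 29, in which CYR61 stands for CCN1 and CTGF for CCN2.

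Contacts were mapped by eCLIP: RNA that comes down with an immunoprecipitated protein is sequenced, and its read counts are set against those of an input library. The series had 2 libraries for G4PID, pulled down with an anti-HA antibody, 2 for SF3B4, pulled down with an antibody against SF3B4, and 2 of input. The protocol given for every sample describes HEK293T cells transfected with a plasmid for G4PID and EGFP, or for the ligase miniTurboID and EGFP, kept for 24 h and exposed to 500 µM biotin for 30 min. It does not say which of these cells served for SF3B4 and for input, and no label tells whether paired libraries were separate cultures or technical repeats. G4PID was thus present at the level a transfected plasmid gave. A library of the undirected ligase was not analysed here. Only 1 peak list per antibody was analysed and it holds no figure for single libraries, so replicate spread could not be measured and no difference was tested.

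The Hippo pathway is a kinase cascade in which MST kinases activate LATS kinases, and LATS kinases phosphorylate YAP and TAZ and keep them out of the nucleus. When the cascade is off, as in spread or sparsely plated cells, YAP and TAZ enter the nucleus and switch on target genes together with the DNA-binding TEAD proteins. CYR61, CTGF and ANKRD1 are the targets most often used to read out this activity. G-quadruplexes are stacked folds that nucleic acids rich in runs of guanine can form, and in mRNA they are best known in 5' untranslated regions (UTRs). Nothing in these data measured YAP or TAZ activity.

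The peak sequences differed most in guanine. The 3 peaks in 5'UTRs, in CRIM1, AXL and GADD45A, held several runs of G, whereas peaks in coding sequence and in the 3'UTR of AXL were rich in C or A, or mixed. AXL peak 4 in the 3'UTR held a single run of 5 G, as long as the longest run of CRIM1. Up to 30 nt from each of the 10 peaks with known sequence are shown to make the range visible, 5' to 3' along the RNA strand and written as DNA, with each run of 2 or more G in capitals. For peaks wider than 30 nt, the stretch shown is the one around the highest G4Hunter score, which counts runs of G up and runs of C down over 25 nt. The sequences come from the GENCODE release 29 transcripts on GRCh38 (hg38).
GADD45A peak 1, 5'UTR, chr1:67685328-67685357, plus strand: acaGGaGGaGGagcccGGGcGGGcgaGGGG
CRIM1 peak 1, 5'UTR, chr2:36356104-36356133, plus strand: cGGcgcGGcccgcagaaGGGGcGGGGGcct
AXL peak 1, 5'UTR, chr19:41219296-41219325, plus strand: ccGGGGagcctGGagctGGGGGGaGGGccg
AXL peak 3, 3'UTR, chr19:41260002-41260031, plus strand: ccacttgcagccctgtcttcctacctatcc
AXL peak 4, 3'UTR, chr19:41261572-41261601, plus strand: ccaactgtGGGGGtgtgcccccttcaagcc
AXL peak 2, coding sequence, chr19:41221964-41221993, plus strand: ccccagagcccgtGGacctactctGGctcc
CYR61 peak 1, coding sequence, chr1:85581380-85581409, plus strand: cccgctgcctgccactgccccctGGaGGcg
CYR61 peak 2, coding sequence, chr1:85582740-85582761, plus strand: aaGGGcaagaaatgcagcaaga
CTGF peak 1, coding sequence, chr6:131950775-131950795, minus strand: caaccgcaagatcGGcgtgtg
CTGF peak 2, coding sequence, chr6:131949389-131949418, minus strand: ccaccctgccGGtGGagttcaagtgccctg

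Each peak came with 2 values from the authors, read here as the −log10 of its p-value and its log2 fold over input. In both lists these values behaved as functions of whole read counts. With a single scale for the whole list, all 270 G4PID folds were whole-number ratios of immunoprecipitation to input reads. The p-value recomputed from those reads matched the deposited −log10 value for all 251 peaks under the ceiling of 400. The allowed difference was 0.01 and grew in proportion for high −log10 values. With up to 4 input reads the recomputed −log10 value was also held at a maximum. The reads given below are these implied counts. Input is at least 1, so that 1 may stand for 0 or 1 input reads. The intervals are 95% intervals (exact binomial for the fold and Poisson for the reads), and they cover counting error only, not the difference between libraries. No source used here says whether these reads are unique molecules.

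CYR61 and CTGF encode the founding members of the CCN family, secreted matricellular proteins that bind integrins and growth factors. Both carried 2 peaks, all 4 in coding sequence, and in both genes 1 lay in exon 2 and 1 in exon 5 of 5. In this family exon 2 encodes the module that resembles insulin-like growth factor binding proteins, and exon 5 the C-terminal cystine knot module. CYR61 peak 1 (chromosome 1, 85581373 to 85581409, plus strand) had the highest fold of the 11, with a log2 fold of 6.17 (interval 3.59 to 11.5), 31 reads (21.1 to 44.0) against 1 input read and a −log10 p of 14.8. It began 8 nt into exon 2, and its midpoint fell at codon 30. CYR61 peak 2 (85582740 to 85582761) had a log2 fold of 5.22 (2.53 to 10.6) from 16 reads, began at the first base of exon 5 and was centred on codon 285.

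CTGF peak 1 (chromosome 6, 131950775 to 131950795, minus strand) had a log2 fold of 5.02 (2.31 to 10.4) from 14 reads. It was the narrowest of the 11 at 21 nt, was centred on codon 92 and ended 5 nt before the end of exon 2. CTGF peak 2 (131949389 to 131949438) had a log2 fold of 5.12 (2.42 to 10.5) from 15 reads. Its midpoint lay at codon 301, 149 nt before the last base of the stop codon. The fold intervals of all 4 peaks in the pair of genes overlapped.

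Although the peaks used the same exons, they did not sit at the same codons. Aligned over 342 residues, CYR61 (381 residues) and CTGF (349 residues) were identical at 177 (51.8%). The codon at the centre of CYR61 peak 1 aligned with CTGF codon 33, which was 59 codons from the centre of the CTGF peak in exon 2. The centre of CYR61 peak 2 aligned with CTGF codon 255, which was 46 codons from the CTGF peak in exon 5. The printed sequences of the exon 5 peaks also differ in kind: that of CYR61 is A-rich, with 50% A and 13.6% C over the peak, and that of CTGF C-rich, with 20% A and 44% C.

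CRIM1 and AXL encode membrane proteins. CRIM1 is a transmembrane protein with cysteine-rich repeats that binds bone morphogenetic proteins. Its 1 peak (chromosome 2, 36356083 to 36356135, plus strand) lay in the 5'UTR, 184 nt before the start codon in exon 1 of 17. It had the lowest fold of the 11, a log2 fold of 4.80 (2.05 to 10.2) from 12 reads, and 12 was also the lowest count at 1 input read anywhere in the G4PID list, shared by 9 peaks.

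AXL encodes a receptor tyrosine kinase of the TAM family, which is activated by the ligand GAS6. It had 4 peaks. Of the 127 genes in the G4PID list, 16 had at least 4, AXL among them, and 11 of these 16 were protein-coding. The 4 AXL peaks were spread over the whole mRNA of 4737 nt, with midpoints at positions 85, 687, 2997 and 4553. AXL peak 1 (chromosome 19, 41219247 to 41219328, plus strand) lay in the 5'UTR, beginning 44 nt after the annotated gene start, with a log2 fold of 5.61 (2.97 to 10.98) from 21 reads. AXL peak 2 (41221941 to 41221993) was the only one of the 4 in coding sequence, at codon 166 in exon 4 of 20, with a log2 fold of 5.02 (2.31 to 10.4) from 14 reads. The gene AC011510.1 is annotated on the opposite strand at that place.

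The last exon of AXL held its other peaks, both in the 3'UTR. AXL peak 3 (41259976 to 41260077), at 102 nt the widest of the 11, was centred 122 nt after the stop codon and had a log2 fold of 5.92 (3.31 to 11.3) from 26 reads. AXL peak 4 (41261563 to 41261601) lay 1678 nt after the stop codon and 184 nt before the end of the mRNA, with a log2 fold of 5.46 (2.81 to 10.8) from 19 reads. Summed over its 4 peaks AXL had 80 reads (63.4 to 99.6), the most of the 6 genes. The sum was 47 in CYR61 (34.5 to 62.5), 29 in CTGF (19.4 to 41.7), 25 in GADD45A, 19 in ANKRD1 and 12 in CRIM1. These sums follow RNA amount, peak number and binding together, and RNA amount was not measured here.

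ANKRD1 and GADD45A encode proteins that act inside the cell. ANKRD1 is an ankyrin repeat protein of muscle sarcomeres and nuclei. Its peak (chromosome 10, 90916917 to 90916948, minus strand) was the only intronic one, in intron 5 of a gene with 9 exons, 800 nt after the upstream exon and 663 nt before the downstream one. It had a log2 fold of 5.46 (2.81 to 10.8) from 19 reads, the same pair of values as AXL peak 4. No annotated exon covered the whole peak, so its sequence was not analysed here.

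GADD45A is a small stress-response protein that binds PCNA and the kinase MEKK4. Its peak (chromosome 1, 67685301 to 67685357, plus strand) lay in the 5'UTR of exon 1, 166 nt before the start codon. It was the only one of the 11 with 2 input reads, and its log2 fold of 4.86 (2.86 to 7.98) rested on 25 reads, so a count among the highest of the 11 went with a fold among the lowest.

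**Figure D1:**
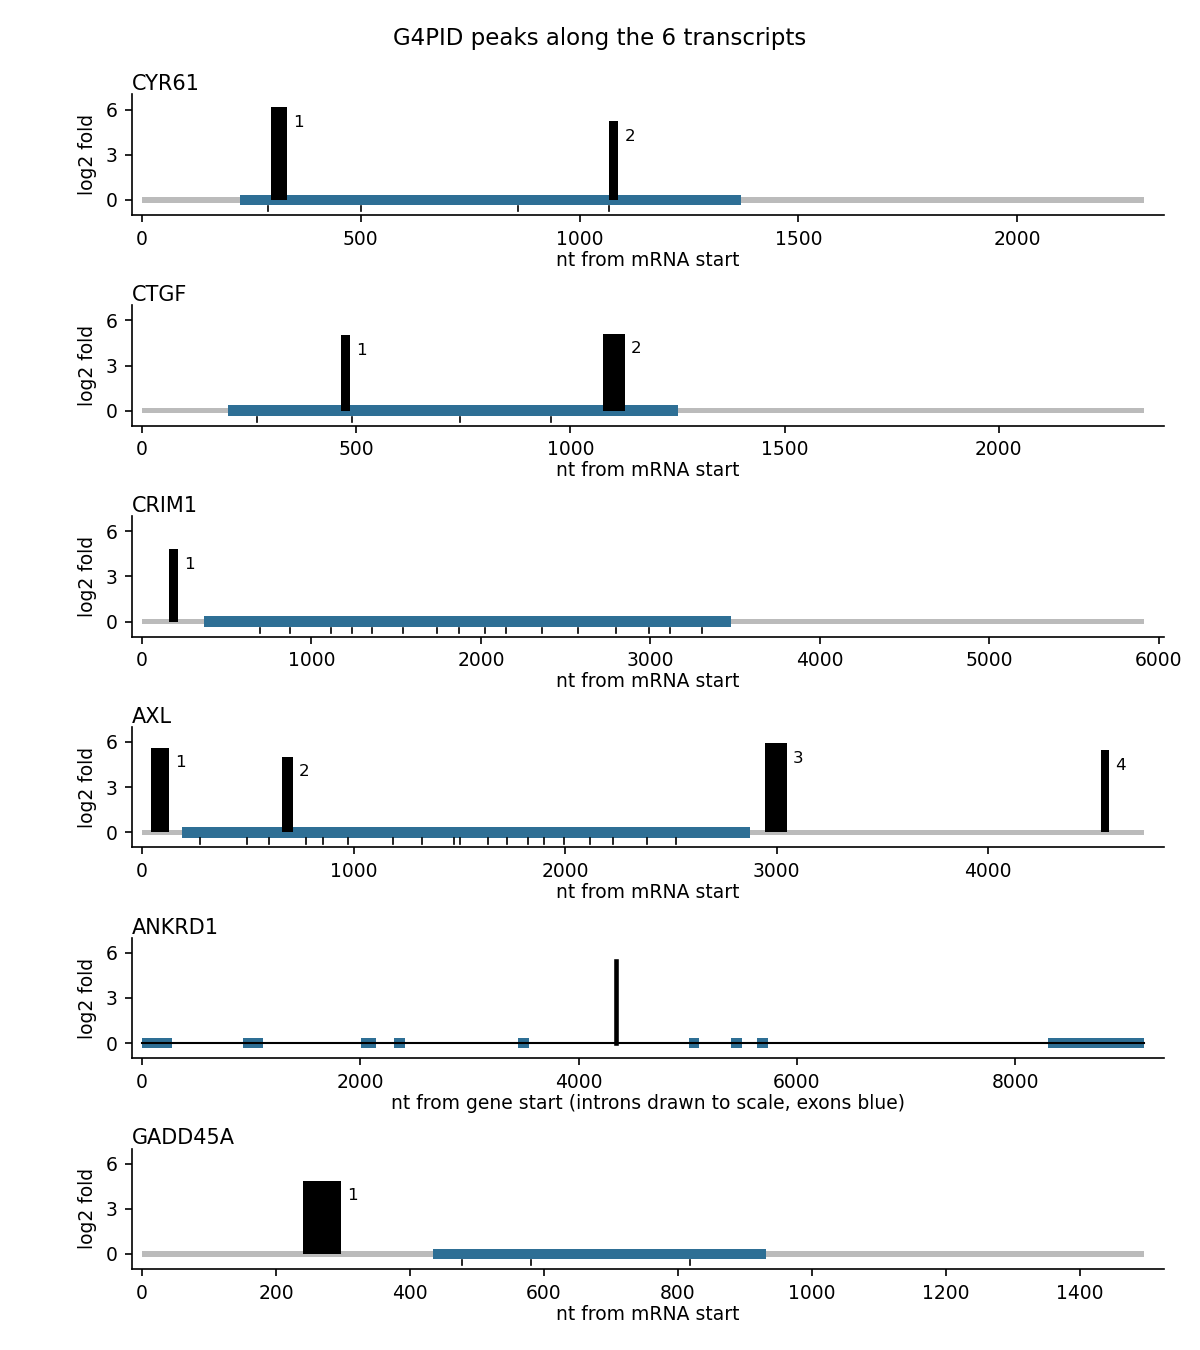
G4PID peaks along the 6 transcripts. The horizontal axis is the position in the mRNA in nt (for ANKRD1 in the gene, with introns to scale), grey marks UTR and blue coding sequence (for ANKRD1, blue marks exons), ticks under the line mark exon junctions, and bars stand at the peaks with height equal to the authors' log2 fold over input. The numbers are the peak numbers used in the text. CYR61 and CTGF have their bars in coding sequence, CRIM1 and GADD45A in the 5'UTR, AXL in all 3 kinds of region, and ANKRD1 between 2 exons.

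The 11 folds could not be ranked beyond counting error. Log2 folds ran from 4.80 to 6.17, and the highest lower bound, 3.59, was below the lowest upper bound, 7.98, so all 11 intervals overlapped. Altogether the 11 peaks rested on 212 immunoprecipitation reads over 548 nt. Input was 1 read at 10 of the 11 peaks (90.9%) and at 116 of the other 259 peaks of the list (44.8%). Where several pairs of counts matched a peak equally, the smallest was taken, so some of the 116 may have had more input reads. The median count was 19 reads in the 6 genes and 23 in the rest, and the median log2 fold 5.22 and 4.92. Because membership followed from passing the authors' peak thresholds, these medians describe the list and are not a test.

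**Figure D2:**
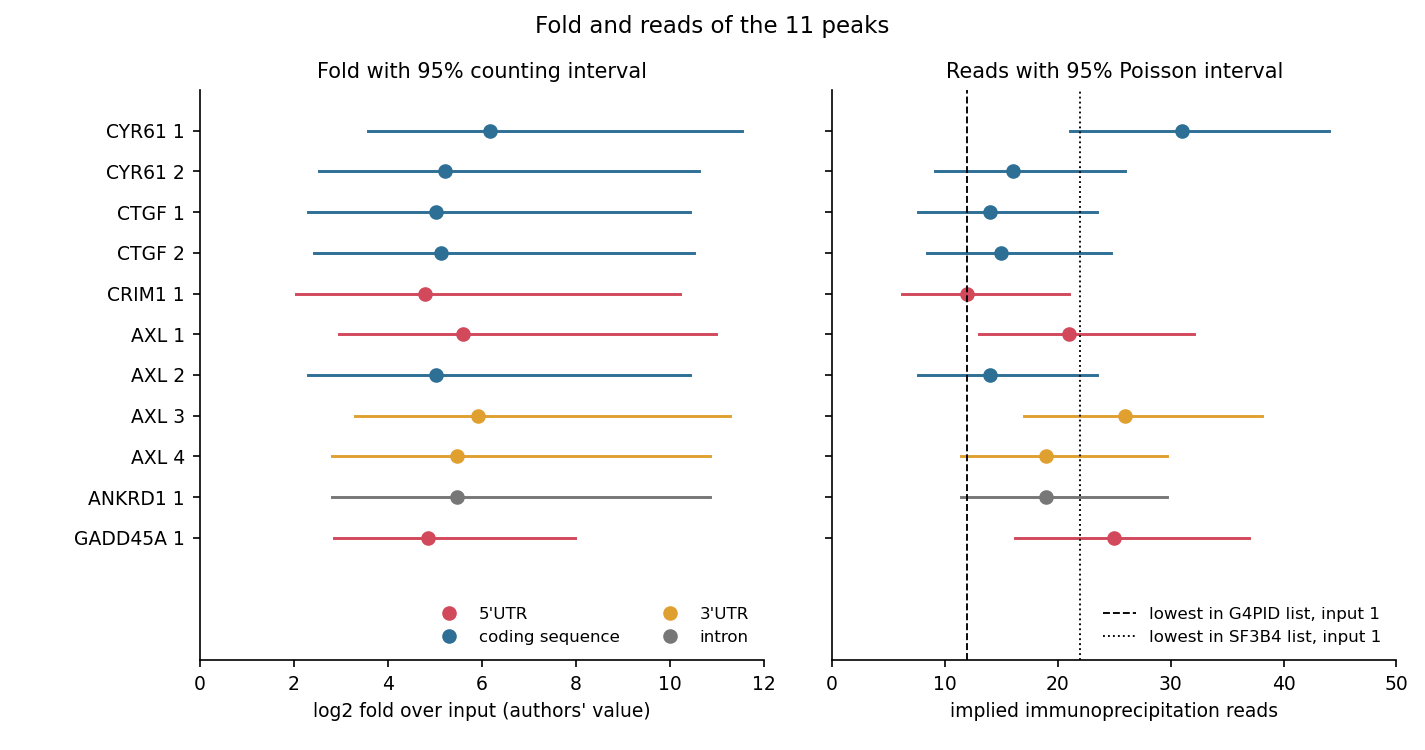
Fold and reads of the 11 peaks. Left, the authors' log2 fold over input with its 95% counting interval; right, the implied immunoprecipitation reads with 95% Poisson intervals; colours mark the region of the peak, and vertical lines mark 12 and 22 reads, the lowest counts listed with 1 input read for G4PID and for SF3B4. All fold intervals overlap, and 8 of the 11 peaks lie below 22 reads. That line is on the scale of the SF3B4 list and is not comparable read for read with the G4PID counts.

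Compared with the rest of the list, the 6 genes had a larger share of their peaks in mature mRNA. Of their 11 peaks, 3 lay in 5'UTR (27.3%), 5 in coding sequence (45.5%), 2 in 3'UTR (18.2%) and 1 in an intron (9.09%). The other 259 peaks had 18 in 5'UTR (6.95%), 59 in coding sequence (22.8%), 41 in 3'UTR (15.8%), 101 in introns (39.0%), 39 in exons of noncoding RNA (15.1%) and 1 in no gene (0.386%). Among the 180 other peaks in protein-coding genes, 61 (33.9%) were intronic. The larger exonic share is not particular to the 6 genes: the early-response regulator genes FOSL1, FOSL2, MAFK and ZFP36L1 of the same list had 14 peaks, of which 2 (14.3%) were intronic. With 11 peaks in 6 genes these shares were not tested.

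The guanine share set the 3 peaks in 5'UTRs apart from the other 7 with known sequence. In the 5'UTR it was 59.7% in GADD45A, 50.9% in CRIM1 and 46.3% in AXL peak 1, and G exceeded C in all 3. The 18 other 5'UTR peaks of the list had between 11.8% and 54.5% G with a median of 30.5%, and G exceeded C in 6 of them. GADD45A thus lay above that whole range, and CRIM1 and AXL lay within it, above its median. In coding sequence the 5 peaks had 22% to 33.3% G, against a median of 33.05% for 58 other coding peaks. The 2 AXL peaks in the 3'UTR had 10.8% and 23.1% G, against a median of 23.5% for 41 others.

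A 5'UTR is often rich in G, so each peak was also set beside all windows of its own width in its own mRNA. A window starts at every nt, so windows overlap and include the peak itself. There were 1440 along the GADD45A mRNA and 378 in its 5'UTR, and for AXL peak 1 there were 4656 and 109. At least as much G as in the GADD45A peak was found in 0.139% of the windows along the mRNA and in 0.529% of those in its 5'UTR. For AXL peak 1 the shares were 0.709% and 4.59%. For CRIM1 they were 3.45% and 45.7%, so the CRIM1 peak was rich in G for its mRNA and close to the middle for its 5'UTR. For the coding peaks between 29.7% (CTGF peak 1) and 70.7% (CTGF peak 2) of mRNA windows held at least as much G.

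AXL peak 3 was the opposite case. It had 10.8% G and 48.0% C, 99.7% of the AXL mRNA windows had at least as much G, and 0.906% had at least as much C. In the printed stretch of this peak no 2 G stand together, and the longest run of G in the whole peak was 2 nt. CYR61 peak 1 was also rich in C, at 51.4%, a level reached by 5.77% of windows along its mRNA. CTGF peak 2, AXL peak 2 and AXL peak 4 had 44%, 41.5% and 43.6% C, reached by 10.4%, 11.2% and 10.3% of windows.

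**Figure D3:**
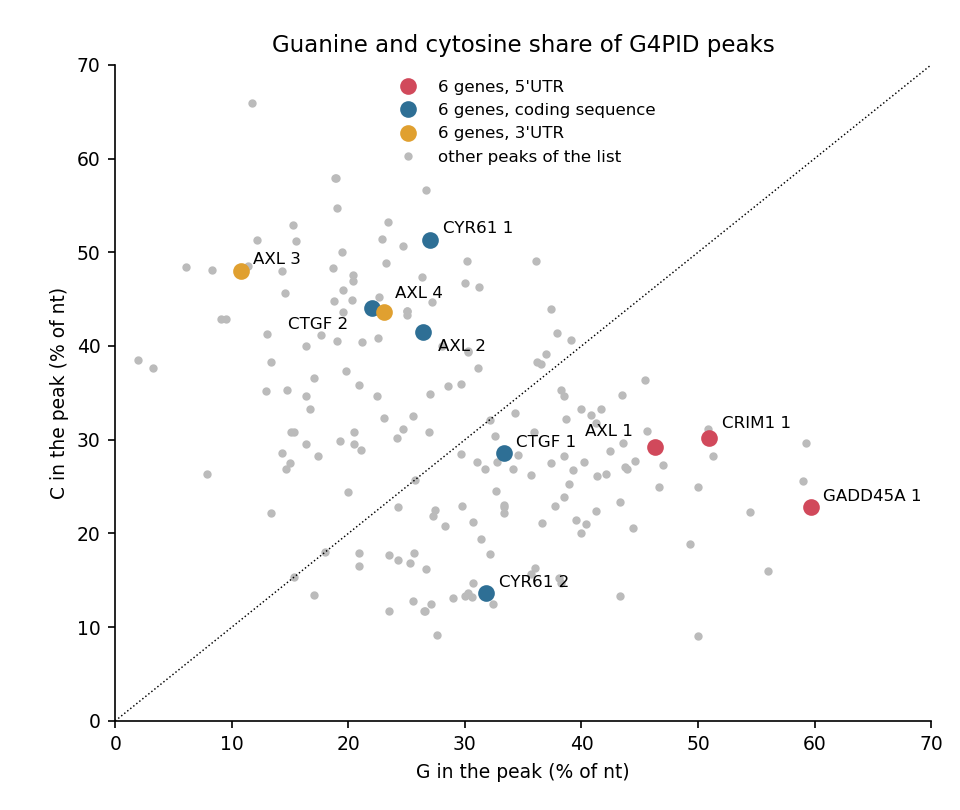
Guanine and cytosine share of G4PID peaks. Each point is a peak whose sequence was known, with the percentage of G on the horizontal axis and of C on the vertical axis; coloured points are 10 peaks of the 6 genes by region, grey points the other peaks, and the dotted line marks equal shares. The 3 peaks in 5'UTRs lie to the right at 46.3% to 59.7% G, and AXL peak 3 lies at the upper left with 10.8% G.

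A quadruplex motif was searched as 4 runs of GGG or longer with 1 to 7 nt of any base between them, on both strands. None of the 10 peaks with known sequence touched such a motif in its mRNA in either strand. The 3 peaks in 5'UTRs had enough runs but spaced too far apart. In GADD45A the 4 runs of 3 or more G were separated by 39, 1 and 3 nt. In CRIM1 they were separated by 3, 18 and 1 nt. AXL peak 1 had 5 such runs, and its closest 4 were separated by 11, 1 and 2 nt. The stretch printed for AXL peak 1 ends at the first base of the last of these 4 runs, so that base stands in lower case. With loops of up to 12 nt AXL peak 1 touched a motif, and with runs of 2 or more G and loops of 1 to 7 nt the GADD45A, CRIM1 and AXL 5'UTR peaks did and the other 7 did not. The search of whole mRNAs for motifs that touch a peak, with the 1 to 7 nt loops and with both other settings, was added after the data were seen.

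With 50 nt of flank along the genome, 7 of the 11 peaks could be searched, and 0 held the motif in sense, against 9 of 154 other windows of the list. The opposite strand held it in 0 of 7 and in 17 of 154. In windows of that size, runs of 2 or more G gave a motif in 4 of 7 and in 72 of 154.

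Motifs did exist elsewhere in these mRNAs. Of the 6 mRNAs, 2 held 1 in sense, CYR61 and CRIM1, both in the 3'UTR. They are shown because they are the only sense matches of the 6 mRNAs.
CYR61 motif, 3'UTR, chr1:85583118-85583142, plus strand: GGGcGGGGGtGGtgtGGGtgatGGG
CRIM1 motif, 3'UTR, chr2:36549000-36549018, plus strand: GGGGaaatGGGtGGGaGGG
The CYR61 motif lay 380 nt from the midpoint of the nearest peak and the CRIM1 motif 3602 nt from it. On the opposite strand, where a match is a C-rich stretch of the RNA, there were 4 motifs, 1 each in CYR61, CTGF, CRIM1 and AXL. That of AXL was the nearest to a peak, 56 nt from the midpoint of AXL peak 1. A match is a description of letters, and no folding was measured here.

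**Figure D4:**
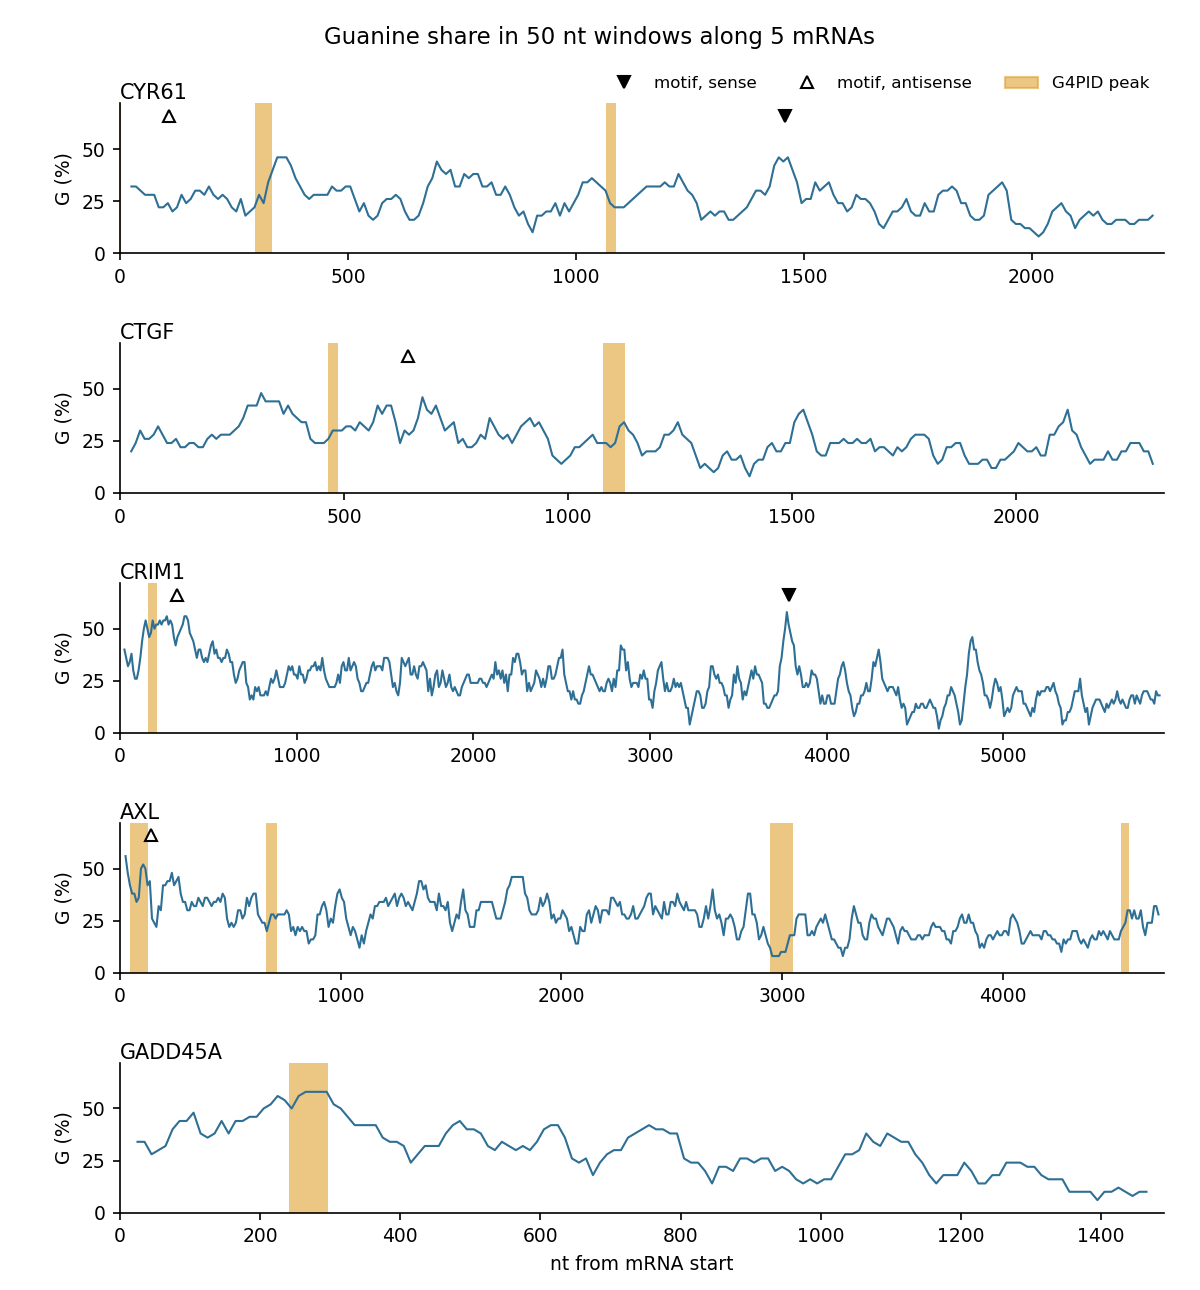
Guanine share in 50 nt windows along 5 mRNAs. The horizontal axis is the position in the mRNA in nt, the vertical axis the percentage of G, shaded bands mark G4PID peaks, and triangles mark quadruplex motifs in sense (filled) and antisense (open). The bands of GADD45A, CRIM1 and the first of AXL stand where the share is high, the third AXL band stands over a low, and no filled triangle stands over a band.

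The 6 genes belong to a list of 22 YAP and TAZ targets, of which they make up 27.3%. Over all 19922 protein-coding genes, 0.507% held a G4PID peak. Since the 6 were selected on having one, and the list itself was written with these results known, nothing is read from that difference. The other 16 targets had a peak in neither list: AMOTL2, ARHGEF17, ASAP1, CCDC80, DOCK5, F3, FJX1, FOXF2, IGFBP3, LATS2, MYOF, NT5E, NUAK2, PTPN14, RBMS3 and TGFB2. A gene without a peak is not shown to be unbound, since the lists hold only what passed the authors' thresholds.

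In the families of the 6 genes, the genes with a G4PID peak were the ones chosen for having one: CYR61 and CTGF of 6 CCN genes, GADD45A of 3 in its family, and AXL of 5 TAM receptors and ligands. The other members of these 3 families had no G4PID peak, and no member had an SF3B4 peak. With 0.507% and 9.37% of all protein-coding genes holding one, lists this short show nothing particular to the families.

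The pathway upstream of YAP and TAZ had 1 gene in each list. Among 22 Hippo core genes, FRMD6, which encodes a FERM-domain protein that acts upstream of the kinases, was the only one with G4PID peaks (4.55%, against 0.507% of all protein-coding genes). It had 3, all intronic, with log2 folds of 5.46, 4.80 and 4.80 from 19, 12 and 12 reads. AMOT, which encodes an angiomotin that binds YAP, was the only one with SF3B4 peaks (also 4.55%, against 9.37% of all protein-coding genes). With 1 gene in each case nothing is read from these shares. Its 2 peaks were intronic, with log2 folds of 4.53 and 4.97 from 25 and 34 reads. The midpoint of one lay 56 nt upstream of its nearest 3' splice site and that of the other 499 nt downstream of its own.

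Holding or lacking an SF3B4 peak was not a criterion for the 6 genes, but they and the lists were chosen with earlier results of these data known. Of all protein-coding genes, 9.37% held an SF3B4 peak, and 0 of the 6 and 0 of the 22 targets did. With lists this short, nothing is read from that difference. For 5 of the 6 genes the nearest SF3B4 peak was 2533 kb away or farther, and for AXL it lay 6.35 kb away, in the neighbouring gene HNRNPUL1. Read counts relate to fold by a different scale in each list, 2.32 for G4PID and 0.921 for SF3B4. The lowest counts with 1 input read, 12 and 22, are therefore not comparable read for read. Each list holds only peaks that passed the authors' thresholds. Absence of SF3B4 from these RNAs was therefore not shown.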

How the data were processed

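eCLIP libraries of HEK293T cells were compared with input by the authors. The submitters' processing notes name STAR 2.7.0d, cutadapt 3.4 and 2 builds, hg38 and hg19. How peaks were called and filtered, and how the 2 libraries per antibody were joined, is not given in the sources used. The authors deposited 1 headerless peak list per antibody, which holds a −log10 p-value and a log2 fold over input per peak, units read from the values and the usual column order. The lists are on hg38, per the names the authors gave them.

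Peaks were placed on the GENCODE release 29 annotation, by midpoint and strand, with coding sequence before UTR and intron. Sequence was rebuilt from 1308 annotated transcripts with 0 length mismatches and 0 clashing bases, since no genome was used here. Implied reads came from the scale under which folds were whole-number ratios (2.32 for G4PID, 0.921 for SF3B4), within a tolerance of 1e-09, with Fisher's exact test up to 4 input reads and the chi-square test with continuity correction from 5. For SF3B4, 3659 of 3660 ratios were whole and 3639 of 3645 p-values matched. The 19 G4PID and 15 SF3B4 p-values at the ceiling of 400 could not be compared. Where several multiples of a ratio matched equally, the smallest pair was kept. This can occur where the recomputed value was held at its maximum. A matching pair was not shown to be the only one possible. The search for scales and motifs was tested on simulated data. G4Hunter scores used 25 nt windows, or the whole sequence where it was shorter. Coding sequences were translated and aligned with Biopython 1.88. Python 3.11.15, numpy 2.4.6, scipy 1.17.1 and matplotlib 3.10.9 were used.

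All 11 peaks of the 6 genes are named, and no other gene is, except members of the gene lists, neighbours and 4 early-response regulators. The members and lists were chosen with earlier results of these data known.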

Additional observations from a re-analysis of the deposited data

How the results depend on the processing

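The count of 11 G4PID peaks in the 6 genes was the same with any overlap, with at least 50% of the peak, with either strand, at a log2 fold of at least 4 and with peaks within 50 nt joined, and it was 9 at a log2 fold of at least 5. At a −log10 p of at least 10 it was 3 (CYR61 peak 1, AXL peak 3 and GADD45A). Minimum implied reads, chosen after seeing the data, gave 8 peaks at 15 reads, 4 at 20 and 3 at 22. Region classes and list counts did not move under the alternatives run. Windows with a sense motif numbered 0, and 4 with runs of 2 or more G; antisense windows numbered 0, and 1 with loops of up to 12 nt. Peaks touching a sense motif of their mRNA numbered 0, 1 with loops of up to 12 nt and 3 with runs of 2 or more G, all 3 searches chosen after seeing the data. Without flanks the highest G4Hunter score per gene was 2 in AXL (1 with flanks along the genome, where AXL peak 1 could not be searched), 1.32 in GADD45A (1.52), 1.28 in CRIM1 (1.84), 0.455 in CYR61 (1.12) and 0.0476 in CTGF (0.400). In CYR61 and CTGF the scores with and without flanks come from different peaks. Those without flanks are from CYR61 peak 2 (22 nt) and CTGF peak 1 (21 nt), which could not be searched with flanks. Those with flanks are from CYR61 peak 1 and CTGF peak 2. The cause of the other differences was not tested. No paired analysis was possible because the lists hold no value per library, and leaving out a replicate was not possible for the same reason. Counts of 12 to 31 immunoprecipitation reads against 1 or 2 input reads limit every fold.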
